A study of Mus musculus with 22 samples.

Results

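Meltf (ENSMUSG00000022780) and Msln (ENSMUSG00000063011) are 2 of the 57010 genes in a table of islet transcript levels. They were selected on their measured difference between islets of mice heterozygous (Het) for the MAFA S64F change and wild-type (WT) mice, Meltf as the strongest riser and Msln as a strong faller on both genetic backgrounds. Those differences are therefore described below without a test. Polyadenylated RNA was sequenced from isolated pancreatic islets of 22 male mice aged 5.5 weeks, each library coming from a single animal. The groups were 5 WT and 6 MafA S64F Het mice on a background labelled C57, and 5 WT and 6 MafA S64F Het mice on a background labelled Mixed. The strains that make up the Mixed background are not named in the labels, and all Het mice carry a normal Mafa allele beside the S64F allele.

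Meltf encodes melanotransferrin, a relative of serum transferrin that binds iron and is held on the outer face of the plasma membrane by a glycosylphosphatidylinositol (GPI) anchor. Msln encodes mesothelin, which is made as a precursor that furin cleaves into a soluble amino-terminal fragment and a GPI-anchored part. Mesothelin is best known from the mesothelium, the cell sheet that lines the body cavities and covers the abdominal organs, and it binds the mucin MUC16. MAFA is a transcription factor of mature insulin-producing beta cells. It binds DNA as a dimer at MAF recognition elements, whose half-site letters are TGCTGAC.

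The sequence before the Meltf start is shown because MAFA binds DNA at such elements. It was searched for the half-site TGCTGAC only, not for a full element. RefSeq promoter windows (build GRCm38.p6) were available for 1 of the 2 genes. The Meltf window below covers the 250 bases before the start, at chr16:31878560-31878809 on the plus strand. Capitals mark each match to TGCTGAC, and both matches lie on the reverse strand.
Meltf promoter: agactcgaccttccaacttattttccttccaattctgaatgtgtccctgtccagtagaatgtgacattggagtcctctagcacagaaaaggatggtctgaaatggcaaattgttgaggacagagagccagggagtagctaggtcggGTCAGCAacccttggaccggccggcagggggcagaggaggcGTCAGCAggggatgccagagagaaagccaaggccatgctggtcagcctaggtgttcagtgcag
The first base of these matches was 104 and 63 bases before the start. Among 32851 RefSeq promoter windows of the same length, 1252 (3.81%) held at least 1 match on either strand, and 47 (0.143%) held at least 2. These matches describe letters in the window, and no binding was measured.

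Levels are transcripts per 1000000 (TPM), so each library has the same sum and each gene is taken per transcript length. Between 14812 and 16133 genes reached 1 TPM in a sample, and the read depth of the libraries is unknown because TPM does not keep it. The islet label was checked against beta cell markers, whose summed level ranged from 250902 to 479954 TPM over the 22 samples. Differences were taken on the log2(TPM + 1) scale, which understates changes of low genes, for the 16756 genes with at least 1 TPM in at least 5 samples. A gene was called changed where its adjusted p from limma, over all these genes, was under 0.05. Bulk RNA cannot tell fewer cells of a type from less RNA per cell.

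Meltf was low in WT islets and abundant in Het islets on both backgrounds. In C57 WT mice Meltf was 4.75, 3.45, 3.13, 4.91 and 4.14 TPM. In C57 Het mice it was 94.3, 95.8, 88.3, 78.6, 81.4 and 81.3 TPM. The lowest C57 Het mouse was therefore far above the highest C57 WT mouse, and the 6 Het values lay close together. In Mixed WT mice Meltf was 2.23, 0.801, 2.67, 2.80 and 2.77 TPM. In Mixed Het mice it was 49.4, 53.8, 49.8, 66.9, 38.1 and 60.5 TPM. The Mixed groups did not overlap either, and the second Mixed WT mouse was the only sample under 1 TPM.

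On the C57 background Meltf averaged 4.08 ± 0.781 TPM in the 5 WT mice (mean ± SD) and 86.6 ± 7.30 TPM in the 6 Het mice, a ratio of 21.3. On the Mixed background it averaged 2.25 ± 0.845 TPM in 5 WT mice and 53.1 ± 9.96 TPM in 6 Het mice, a ratio of 23.5. The log2 difference between Het and WT was 4.12 (SE 0.16) in C57 and 4.08 (SE 0.16) in Mixed. Among the 16756 genes Meltf ranked at position 1 of the risers in C57, followed by Angptl7 at 3.60. It ranked at position 2 in Mixed, between Gm15772 at 4.44 and C8b at 3.78, so it was the strongest riser on the C57 background only. Non-overlapping groups with Het higher were found for 15.9% of genes in C57 and 17.9% in Mixed, in the contrast that chose the gene. Ranked by level among these genes, mean Meltf lay at percentile 32.8 in C57 WT and 94.2 in C57 Het, and at 21.5 and 88.8 in Mixed WT and Het.

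Msln moved the other way, from a high level in WT islets to a lower level in Het islets. In C57 WT mice Msln was 275, 160, 153, 130 and 134 TPM. In C57 Het mice it was 33.1, 31.5, 13.0, 39.9, 30.4 and 42.6 TPM. The first C57 WT mouse stood above the other 4, and the third C57 Het mouse stood below the other 5. In Mixed WT mice Msln was 72.1, 127, 112, 147 and 142 TPM. In Mixed Het mice it was 14.1, 14.8, 23.4, 15.6, 7.82 and 3.61 TPM. The WT and Het groups did not overlap on either background.

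On the C57 background Msln averaged 170.4 ± 59.96 TPM in the 5 WT mice (mean ± SD) and 31.8 ± 10.4 TPM in the 6 Het mice, which was 18.6% of WT. On the Mixed background it averaged 119.8 ± 29.99 TPM in 5 WT mice and 13.2 ± 6.84 TPM in 6 Het mice, or 11.05% of WT. The log2 differences were -2.41 (SE 0.34) in C57 and -3.22 (SE 0.34) in Mixed. Msln ranked at position 9 of the fallers in C57, between Rgs16 at -2.42 and Gm27168 at -2.38. In Mixed it ranked at position 7, between Gm49980 at -3.23 and Gm47824 at -3.16. Non-overlapping groups with Het lower were found for 5.04% of genes in C57 and 5.76% in Mixed, again in the contrast that chose the gene. Percentiles of the mean Msln level were 97.9 and 80.1 in C57 WT and Het, and 96.5 and 58.4 in Mixed WT and Het.

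**Figure D1:**
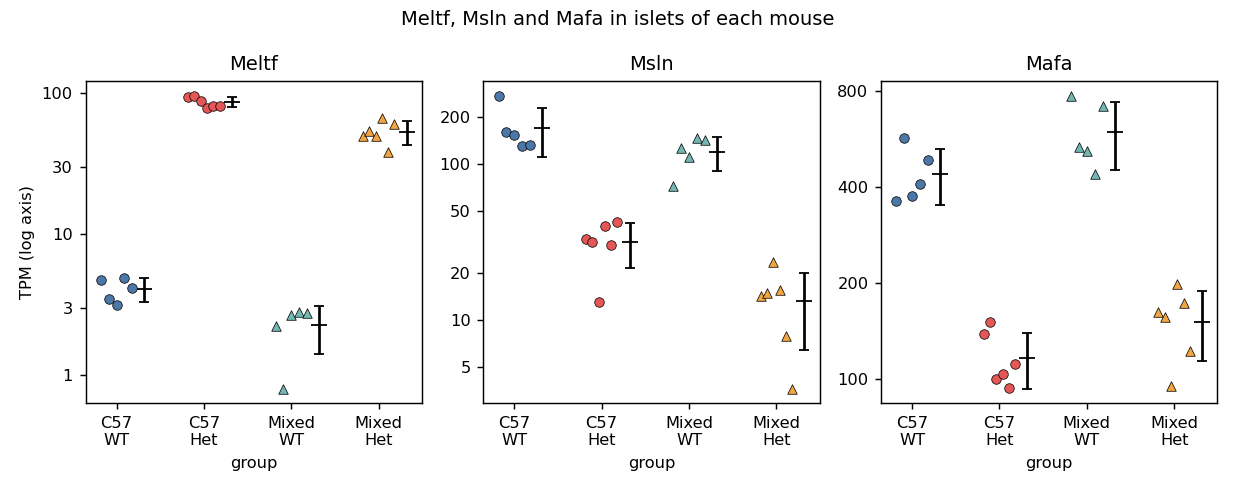
Level of Meltf, Msln and Mafa in each of the 22 mice, in TPM on a log axis that differs between panels; points are mice and bars give the group mean with SD. Meltf was 38.1 TPM or more in every Het mouse and 4.91 TPM or less in every WT mouse, whereas Msln and Mafa were lower in every Het mouse than in any WT mouse.

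The order of the pair was reversed between genotypes in every mouse. In WT islets Msln exceeded Meltf 26.4- to 57.9-fold in C57 (median 46.4) and 32.3- to 158-fold in Mixed (median 51.2). In Het islets Meltf exceeded Msln 1.91- to 6.78-fold in C57 (median 2.76) and 2.13- to 16.8-fold in Mixed (median 3.95). TPM is per transcript length, so levels of both genes can be set side by side in this way. Msln had the wider spread in the pooled data, though not among Mixed WT mice: the pooled within-group SD of log2(TPM + 1) was 0.29 for Meltf and 0.61 for Msln. The coefficient of variation of Meltf was lowest in C57 Het mice at 8.43% and highest in Mixed WT mice at 37.5%. That of Msln ranged from 25.0% in Mixed WT to 51.7% in Mixed Het mice.

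The Het difference of Meltf was of similar size on both backgrounds, with Mixed minus C57 at -0.04 log2 (SE 0.23, 95% interval -0.52 to 0.45). For Msln the corresponding value was -0.81 (SE 0.48, 95% interval -1.81 to 0.19). The interval for Msln runs from a fall that was larger in Mixed to a fall slightly smaller there. Both values come from the contrasts that chose the genes and carry no test.

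The comparison of backgrounds within a genotype did not enter the choice and was tested. Both genes tended to be lower on the Mixed background, and 3 of the 4 differences were called. Meltf was lower in Mixed than in C57 WT islets by a log2 difference of -0.68 (SE 0.17, limma adjusted p = 0.0127), with a Mixed mean that was 55.3% of C57. All 5 Mixed WT mice were below all 5 C57 WT mice. In Het islets the difference of Meltf was -0.71 (SE 0.16, limma adjusted p = 0.00274), the Mixed mean was 61.3% of C57, and all 6 Mixed Het mice were below all 6 C57 Het mice. Lower calls in Mixed were made for 4.99% of genes in WT and 7.13% in Het islets, and non-overlapping groups with Mixed lower were found for 3.21% and 3.28%.

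Msln was lower in Mixed than in C57 Het islets by -1.30 log2 (SE 0.32, limma adjusted p = 0.00683), and its Mixed mean was 41.7% of C57. These groups overlapped through the third C57 Het mouse, and the other 5 C57 Het mice were above all 6 Mixed Het mice. In WT islets the difference of Msln missed the threshold at -0.49 (SE 0.36, 95% interval -1.23 to 0.25, limma adjusted p = 0.405). Two-sided exact permutation tests of the same 4 differences gave adjusted p-values, over these 4 comparisons, of 0.0144 and 0.00866 for Meltf in WT and Het, and of 0.0873 and 0.0144 for Msln. Mafa did not pass the test between backgrounds in WT (0.43 log2, limma adjusted p = 0.153) or Het islets (0.36, limma adjusted p = 0.157). The WT call of Meltf was lost in a fit on the WT samples alone (limma adjusted p = 0.0958), and without the second Mixed WT mouse the difference was -0.48. Among Het islets, markers of other cell types were also higher in Mixed: 6 of 6 mesenchymal, 6 of 6 immune, 4 of 5 Schwann cell and 3 of 4 delta cell markers, where 13.3% of all genes were called higher. Of the other lists, 2 of 6 ductal, 2 of 6 endothelial, 1 of 6 alpha cell, 1 of 7 acinar and 1 of 3 mesothelial markers were called higher. Of 10 beta cell markers 4 were called lower and 0 higher, where 7.13% of all genes were called lower. In WT islets 0 of the mesenchymal, immune and delta cell markers, 1 Schwann cell marker and 2 beta cell markers were called higher, where 6.3% of all genes were. Called lower in Mixed WT islets were 2 of 6 alpha cell, 1 of 6 ductal and 1 of 6 immune markers, where 4.99% of all genes were. The part of the mesenchymal, immune, Schwann, ductal, delta and beta cell markers in the differences of Meltf and Msln was not tested. Both Het calls were lost with the mesothelial marker level as a covariate, at -0.51 (limma adjusted p = 0.0770) for Meltf and -0.97 (limma adjusted p = 0.123) for Msln. That level was the mean of only 3 of 11 listed markers, those that passed the filter. One of them, Krt19, is also a gene of pancreatic ducts.

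Mafa, the gene that carries the change, was lower in Het islets, and its TPM does not separate the normal from the S64F allele. On the C57 background Mafa averaged 441 ± 87.6 TPM in 5 WT mice and 117 ± 23.2 TPM in 6 Het mice. On the Mixed background these means were 598 ± 143 and 152 ± 37.1 TPM. Every Het mouse had less Mafa and more Meltf than any WT mouse. The lowest WT Mafa level was 362 TPM and the highest Het level was 199 TPM, so the genotypes form separate clusters, and no correlation over the pooled samples is given. Ordered by mean Mafa, from Mixed WT through C57 WT and Mixed Het to C57 Het, mean Meltf rose at each step, from 2.25 through 4.08 and 53.1 to 86.6 TPM. Mean Msln did not follow this order, being highest in C57 WT and lowest in Mixed Het islets. These are 4 group means, and the order was not tested.

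**Figure D2:**
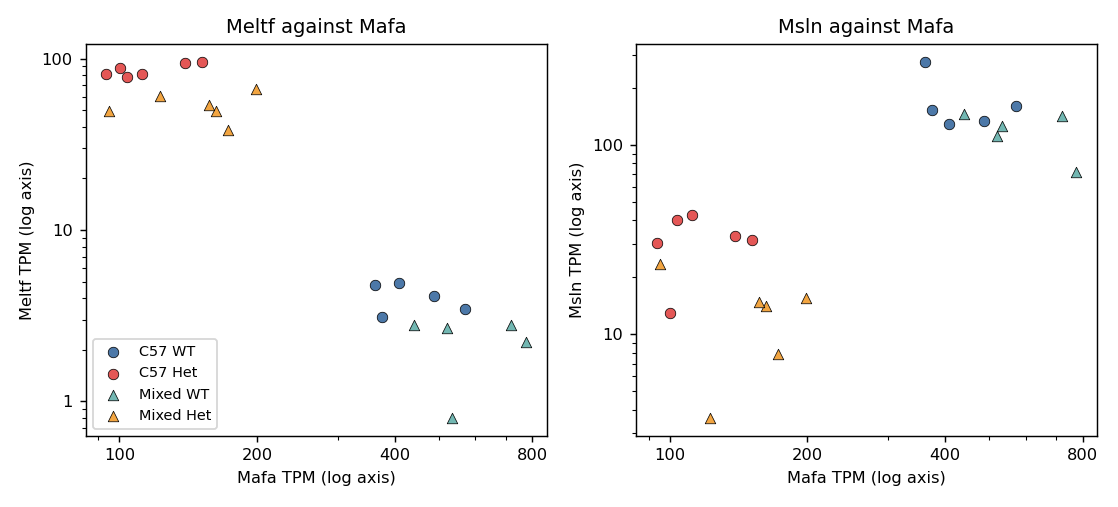
Meltf (left) and Msln (right) against Mafa in each mouse, in TPM on log axes, coloured by group. WT mice lie at 362 TPM of Mafa or more and Het mice at 199 TPM or less, and no mouse lies between these clusters.

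Within groups neither gene showed a relation to Mafa that passed correction. Relations were computed in log2(TPM + 1) among the 6 C57 Het mice, among the 6 Mixed Het mice, and over all 22 mice after subtracting each group's mean, which made 9 relations with that of Meltf to Msln. Correlations were computed over at least 6 mice, so the WT groups of 5 entered through the 22 mice only. For Mafa and Meltf in C57 Het mice Pearson's r was 0.82 (exact permutation p = 0.0583, adjusted 0.525) and Spearman's rho was 0.54 (exact permutation p = 0.297). The 2 C57 Het mice with the most Mafa, at 139 and 152 TPM, also had the most Meltf, at 94.3 and 95.8 TPM. Without the 2 mice farthest from the median Mafa level r was -0.21, so this relation rests on those 2 mice together. With each mouse left out in turn r stayed positive, from 0.69 to 0.93, so no single mouse carried it. In Mixed Het mice r was 0.06 and rho 0.03 (exact permutation p = 0.914 for r, adjusted 0.994), and r was 0.48 without the 2 farthest mice. Over the 22 mice with group means subtracted r was 0.08 and rho 0.05 (permutation p = 0.760 for r, adjusted 0.994), and r was -0.03 without the 2 farthest mice.

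For Mafa and Msln, r was 0.26 and rho 0.43 in C57 Het mice (exact permutation p = 0.697 for r) and -0.06 and -0.09 in Mixed Het mice (exact permutation p = 0.922). Over the 22 mice with group means subtracted r was -0.12 and rho -0.05 (permutation p = 0.652). Without the 2 farthest mice these r values were 0.44, 0.07 and 0.02. The relation of Meltf to Msln was r = 0.0019 and rho = -0.02 over the 22 mice (permutation p = 0.994). It was r = -0.30 and rho = -0.49 in C57 Het (exact permutation p = 0.689) and r = -0.0048 and rho = 0.20 in Mixed Het mice (exact permutation p = 0.988). Adjusted p-values for r were 0.994 in all these relations except the first. Without the 2 mice farthest from the median Meltf level, r of Meltf and Msln was -0.94 in C57 Het and -0.91 in Mixed Het, over 4 mice each, and -0.086 over the remaining mice of the 22. With each mouse left out in turn it stayed negative in C57 Het (-0.57 to -0.15) and changed sign in Mixed Het (-0.41 to 0.59). These values describe few mice and carry no test. With 6 mice a group, only a strong relation could pass a test.

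**Figure D3:**
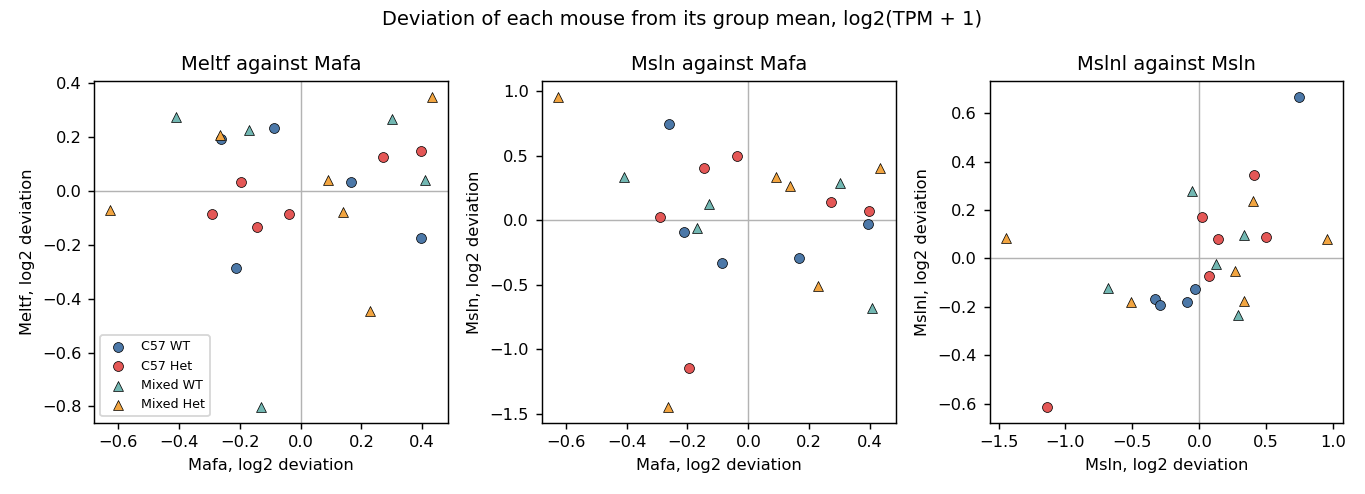
Deviation of each mouse from its group mean in log2(TPM + 1) for Meltf against Mafa, Msln against Mafa, and Mslnl against Msln, coloured by group. The first panels scatter around 0 (r = 0.08 and -0.12 over 22 mice), and in the third panel r was 0.53 over 22 mice but 0.10 among the 6 Mixed Het mice, which hold both the highest and the lowest Msln deviation.

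The neighbours of Meltf on chromosome 16 moved far less than Meltf. Of its 5 protein-coding neighbours on each side in the GENCODE M21 order, 9 passed the filter, and their log2 differences between Het and WT lay between -0.15 and 0.87 over both backgrounds. In C57 7 of these 9 were called higher and 0 lower, and in Mixed 6 were called higher and 0 lower, where 26.4% and 30.7% of all genes were called higher. The nearest gene upstream, Dlg1, a scaffold protein of cell junctions, was higher by 0.51 and 0.24. Apod, which encodes a lipid-binding lipocalin, was higher by 0.45 and 0.87, and Pak2, a protein kinase, by 0.60 and 0.48. Ncbp2, of the nuclear cap-binding complex, was higher by 0.39 and 0.36, and Senp5, a SUMO protease, by 0.55 and 0.49. The calls of Ncbp2 on both backgrounds, and that of Dlg1 in Mixed, were lost under each of 3 rescalings of the libraries. The nearest gene downstream, Pigz, an enzyme of GPI anchor synthesis, did not pass the filter.

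Msln lies on chromosome 17 beside Mslnl (ENSMUSG00000041062), which encodes a mesothelin-like protein and is read from the opposite strand. Mslnl fell with Msln in Het islets on both backgrounds, from a much lower level. On the C57 background it averaged 5.34 ± 1.92 TPM in 5 WT mice and 2.52 ± 0.716 TPM in 6 Het mice, and on the Mixed background 1.36 ± 0.328 and 0.484 ± 0.171 TPM. Its log2 difference in C57 was -0.84 with an SE of 0.17 (limma adjusted p = 5.86e-04), and in Mixed it was -0.66 with the same SE (limma adjusted p = 0.00279). By ratio of means the fall was not smaller in Mixed, with Het at 35.7% of WT there and 47.1% in C57. Every Mixed Het mouse was at 0.741 TPM or less, where log2(TPM + 1) understates a change. All Het mice were below all WT mice of their background. Mslnl was also lower on the Mixed background, by -1.40 in WT and -1.22 in Het islets, both called.

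The first C57 WT mouse had the most Msln, at 275 TPM, and the most Mslnl, at 8.78 TPM. The third C57 Het mouse had the least of both genes in its group, at 13.0 and 1.25 TPM. Over the 22 mice with group means subtracted, a relation added after the data were seen, r between Msln and Mslnl was 0.53 and rho 0.38 (permutation p = 0.0125 for r and 0.122 for rho). Among Mixed Het mice alone r was 0.10 and among C57 Het mice 0.92 (exact permutation p = 0.864 and 0.0431, adjusted 0.994 and 0.233). For the 22 mice, after adjustment over 12 relations the p-values were 0.150 and 1, so the relation did not pass correction. Of the words of 31 bases in Msln transcripts in GENCODE M21, 117 of 3215 (3.64%) also occurred in transcripts of other genes, and 0 occurred in those of Mslnl. For Meltf 0 of 4103 words occurred elsewhere. Whether the authors' counting used strand is not given in the sources used here, so reads from the adjacent ends of Msln and Mslnl cannot be told apart with certainty.

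Of the 10 neighbours of Msln, 7 passed the filter. In C57 5 were called lower and 0 higher, and in Mixed 3 were called lower and 1 higher, against 11.6% and 13.5% of all genes called lower. Besides Mslnl, Rpusd1, a pseudouridine synthase family gene, was lower by a log2 difference of -0.68 in C57 and -0.24 in Mixed. Haghl, a relative of the glyoxalase gene Hagh, was at -0.68 and -0.36. The Mixed calls of Rpusd1 and Haghl were lost in 3 and 2 of 22 fits with a mouse left out (limma adjusted p up to 0.0852 and 0.0869). Both Mixed calls were also lost with acinar, mesothelial or alpha markers as a covariate. None of the neighbours came near the -2.41 and -3.22 of Msln.

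The level of Msln was set beside 11 mesothelial markers, because mesothelium covers the pancreas and Msln is a mesothelial gene. Of these markers 8 failed the filter, among them Wt1, Upk3b, Lrrn4, Muc16 and Bnc1, and the highest mean over the 22 samples among the 8 was 0.564 TPM. None was at 0 in every sample. The summed level of the 11 markers ranged from 2.50 to 6.85 TPM in C57 WT, 5.59 to 11.3 in C57 Het, 3.38 to 12.2 in Mixed WT and 5.66 to 35.6 in Mixed Het mice. Msln alone was 72.1 TPM or more in every WT mouse, above the marker sum of every sample. The marker sum reached higher values in Het than in WT islets. Whether mesothelial cells had a part in the level of Msln or its difference was not tested. In C57 1 of the 3 markers that passed the filter was called higher, Gpm6a by 1.07, and in Mixed 2 were, Gpm6a by 0.94 and Krt19 by 0.99, where 26.4% and 30.7% of all genes were called higher. Krt19 is also a gene of pancreatic ducts. In the fits with the mean level of the 3 markers that passed the filter as a covariate, the Het difference of Msln was -2.15 in C57 and -2.79 in Mixed. That of Meltf was 4.28 and 4.35.

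**Figure D4:**
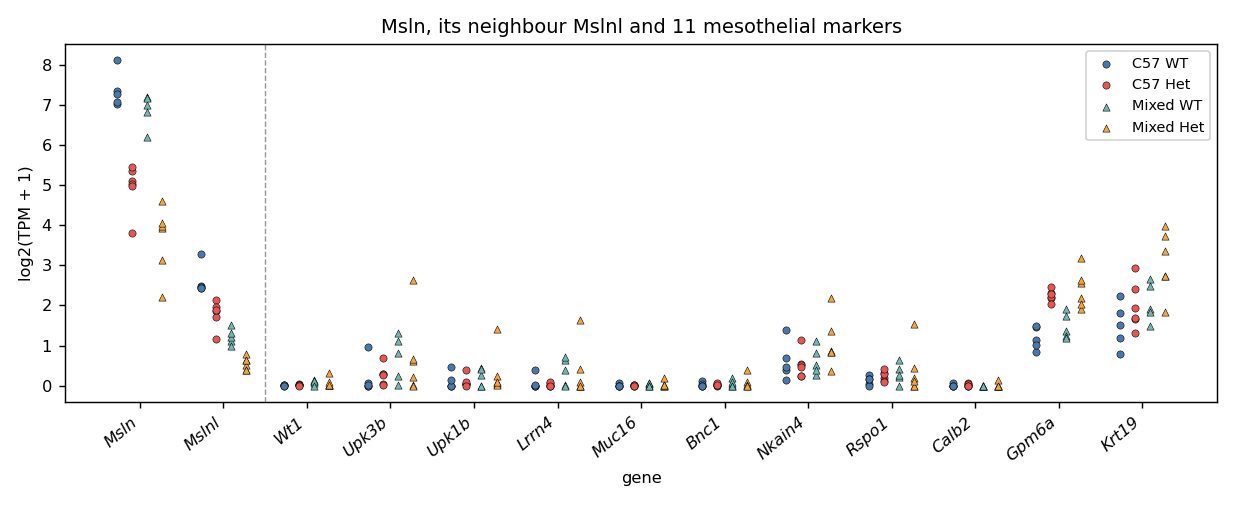
Level in log2(TPM + 1) of Msln, Mslnl and 11 mesothelial markers in each mouse, coloured by group. Msln was highest in WT mice, whereas 8 of the 11 markers had means of 0.564 TPM or less and single Mixed Het mice had the highest values of several markers.

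The fifth Mixed Het mouse had the highest marker sum, 35.6 TPM, and within its group the lowest Meltf, 38.1 TPM, and the second lowest Msln, 7.82 TPM. The second Mixed WT mouse, with Meltf at 0.801 TPM, had the highest marker sum among WT mice, 12.2 TPM. Other mice did not follow this pattern. The first C57 WT mouse had the highest sum of its group, 6.85 TPM, with the most Msln, 275 TPM, and Meltf at 4.75 TPM. The third C57 Het mouse had the highest sum of its group, 11.3 TPM, with Meltf at 88.3 TPM and its group's lowest Msln, 13.0 TPM. The sixth Mixed Het mouse had the lowest Msln, 3.61 TPM, and its sum of 12.0 TPM was at rank 4 in its group. Whether other cells in these preparations contributed to the low values was not tested.

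Markers of other cell types also moved with genotype. All 6 alpha cell markers were called higher in Het islets on both backgrounds, and all 4 delta cell markers were, where 26.4% of all genes were called higher in C57 and 30.7% in Mixed. Summed alpha markers ranged from 15922 to 57581 TPM in WT mice and from 65682 to 117678 TPM in Het mice. Of 10 beta cell markers 3 were called lower and 1 higher in C57, and 7 lower and 0 higher in Mixed. Mafa itself is on that list and was among those called lower on both backgrounds. Of all genes 11.6% were called lower in C57 and 13.5% in Mixed. Of 7 acinar markers that passed the filter 6 were called higher in C57 and 0 in Mixed. In Mixed 5 of 6 ductal markers were called higher and 1 lower, 6 of 6 immune, 5 of 6 mesenchymal and 4 of 5 Schwann cell markers were called higher, and in C57 2 of the ductal and 0 of the immune, mesenchymal and Schwann cell markers were. Of 6 endothelial markers 3 were called lower and 0 higher in C57, and 1 lower and 0 higher in Mixed. With the alpha marker level as a covariate, added after the data were seen, the Het difference of Meltf was 4.43 (SE 0.27) in C57 and 4.61 (SE 0.40) in Mixed. That of Msln was -2.86 (SE 0.57) and -3.996 (SE 0.85). Summed alpha markers did not overlap between genotypes, so this fit cannot separate alpha marker level from genotype well. Its SEs exceed the 0.16 of Meltf and 0.34 of Msln without the covariate. With the acinar marker level as a covariate, the values were 4.195 and 4.14 for Meltf and -2.64 and -3.38 for Msln.

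Genes of iron handling, the process to which melanotransferrin is related by sequence, changed about as often as other genes. Of 35 genes in the list 26 passed the filter. In C57 7 were called higher and 3 lower (38.5% called, against 38.0% of all genes), and in Mixed 9 higher and 3 lower (46.2% against 44.1%). The median log2 difference was 0.18 in C57 and 0.20 in Mixed, against 0.08 and 0.10 for all genes. The 4 genes called on both backgrounds were all higher: Hmox1, which releases iron from haem, by 0.83 and 0.78, Pcbp1, an iron chaperone, by 0.43 and 0.62, Hfe, a regulator of iron sensing, by 0.36 and 0.45, and Slc48a1, a haem transporter, by 0.21 and 0.46. The C57 call of Slc48a1 was lost under each of the 3 rescalings and that of Hfe under 1. Tfrc, the transferrin receptor, was at -0.41 in C57 (limma adjusted p = 0.162, but 0.0411 with quantile normalization) and fell by 0.59 in Mixed (limma adjusted p = 0.0398), a call lost in 8 of 22 fits with a mouse left out (limma adjusted p up to 0.122) and with no filter or with mesothelial or alpha markers as a covariate. Slc40a1, the iron exporter ferroportin, was at 0.26 and -0.18 and was called on neither background (limma adjusted p = 0.240 and 0.422). The largest of these values was well below the 4.12 and 4.08 of Meltf.

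Meltf and Msln products share a GPI anchor, so the genes of anchor synthesis were listed. Of 29 genes 28 passed the filter. In C57 6 were called higher and 1 lower (25.0% called, against 38.0% of all genes), and in Mixed 9 higher and 4 lower (46.4% against 44.1%), with medians of 0.08 and 0.15 against 0.08 and 0.10. Pigf was higher by 0.56 and 0.58, Pigw by 0.47 and 0.47, Pigs by 0.36 and 0.42, Pigk by 0.25 and 0.37, and Pigt by 0.22 and 0.23. These encode enzymes of the anchor pathway or, for Pigs, Pigk and Pigt, subunits of the transamidase that attaches the anchor. Under 1 or more of the 3 rescalings the calls of Pigk in C57 and of Pigw and Pigt on both backgrounds were lost, and those of Pigf and Pigs were not. Dpm3, a subunit of the dolichol-phosphate mannose synthase, was called in opposite directions, at -0.28 in C57 and 0.30 in Mixed, the latter lost under each rescaling. Without the fifth C57 WT mouse 4 genes of this list were called in C57 in place of 7.

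Other genes of GPI-anchored proteins were mostly higher in Het islets where they were called, and so were genes at large. Of all genes 26.4% were called higher and 11.6% lower in C57, and 30.7% and 13.5% in Mixed. Of the 62 genes in this list 42 passed the filter. In C57 15 were called higher and 6 lower (50.0% called, against 38.0% of all genes), and in Mixed 25 higher and 2 lower (64.3% against 44.1%), with medians of 0.13 and 0.54. The largest differences called on both backgrounds were those of the GDNF family receptors Gfra3 (1.95 and 1.79) and Gfra1 (1.19 and 1.40). They were followed by the folate receptor Folr1 (0.65 and 1.17), the neurotrimin gene Ntm (0.66 and 1.03), the glypican Gpc1 (0.54 and 1.0) and Cd24a (0.41 and 1.02), whose C57 call was lost under each rescaling. Against these Meltf had the larger rise, and no gene of this list fell as far as Msln. These counts were lower with marker levels as covariates: with acinar markers as a covariate 8 genes of the list were called in C57, with mesothelial markers 12 in Mixed, and with alpha markers 2 and 1.

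Of the mesothelin relatives and partners, Mslnl fell on both backgrounds as described. Otoa, a mesothelin relative of the inner ear, fell by 0.48 in C57 (limma adjusted p = 0.0253) and was at -0.38 in Mixed (limma adjusted p = 0.0709). Furin, the protease of the mesothelin precursor, was at 0.17 and 0.15 and was called on neither background (limma adjusted p = 0.156 and 0.193). Adam17, a protease that sheds membrane proteins, was at 0.22 and 0.07 (limma adjusted p = 0.0647 and 0.538). Strc and Muc16, the latter the binding partner of mesothelin, did not pass the filter.

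**Figure D5:**
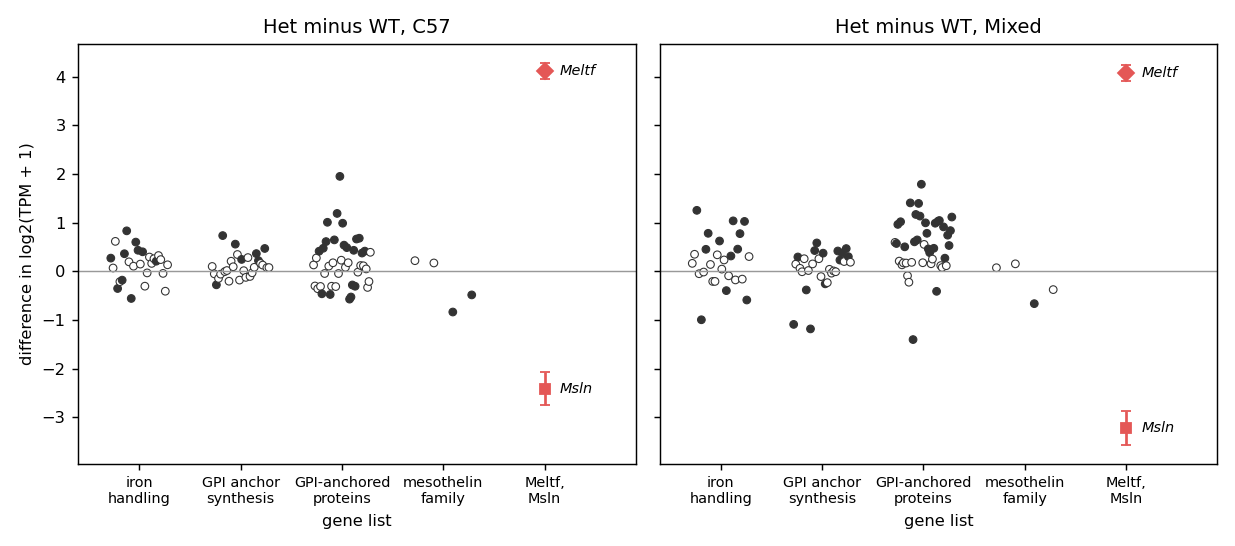
Difference between Het and WT in log2(TPM + 1) for the genes of 4 lists and for Meltf and Msln, on each background; filled points were called, open points were not, and bars on Meltf and Msln give the SE. Meltf (4.12 and 4.08) lies above and Msln (-2.41 and -3.22) below every listed gene.

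The genes most like each member over the 22 samples were those that shared its genotype difference. Genes with a provisional symbol (Gm, BC, AI or AW with digits, or ending in Rik) or an Ensembl ID alone were left out of these rankings. The closest to Meltf by Pearson's r of log2(TPM + 1) were Hapln1 (0.969), Synpr (0.967), Cemip (0.962), Rasl10b (0.955) and Ptpn3 (0.953). All of these were higher in Het islets, for example Rasl10b by 2.54 in C57 and 2.56 in Mixed. The most opposed were Hspa12a (-0.952), Tafa1 (-0.952) and Asic1 (-0.950). The closest to Msln were Jakmip1 (0.951), Gipr (0.950), Dok7 (0.943), Lrrc36 (0.938) and Galnt14 (0.936). Gipr, the receptor for the incretin hormone GIP, was lower in Het islets by a log2 difference of -1.55 in C57 and -1.90 in Mixed. The most opposed were Itm2c (-0.949), Sall1 (-0.944) and Tapbpl (-0.940). All samples share the genotype clusters, so these values describe mainly the difference between genotypes.

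With group means subtracted, other genes came closest. For Meltf these were Wdr25 (0.749), Snora41 (0.659), Zfp296 (0.654), Angptl6 (0.622) and Mir3091 (0.617). Wdr25 itself differed between genotypes by only -0.07 and -0.01. For Msln they were Hhatl (0.804), Pdzrn4 (0.787), Scin (0.740), Smim24 (0.737) and Snord91a (0.724). Hhatl was higher in Het islets, by 1.06 in C57 and 2.04 in Mixed, and so were Pdzrn4 (0.95 and 0.54) and Scin (1.08 and 1.0), whereas Msln was lower there. These genes followed Msln between mice of a group and opposed it between genotypes. They are the highest values over 22 samples of shared libraries among the 16756 genes without provisional symbols or bare IDs, and are given as a description.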

How the data were processed

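Poly(A) RNA of islets from 22 mice was sequenced as 150-base read pairs, per the labels' protocols. The authors deposited a table of TPM for 57010 Ensembl gene IDs, per the file headers, in which each sample sums to 1000000. STAR 2.7.10b, MultiQC 1.7 and the mm39 build are named, per the submitters' processing notes. The counting tool, the annotation and the use of strand are not given in the sources used here. The reference tables used here are of an older build, so coordinates are given for the RefSeq window only.

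Meltf, Msln and the gene and marker lists were chosen with earlier results of these data known. Genes with at least 1 TPM in at least 5 samples were kept (16756). limma 3.58.1 in R 4.3.3 (lmFit, eBayes with trend) fitted the 4 group means of log2(TPM + 1) over all samples, with Benjamini-Hochberg adjustment over all genes. Where 147 symbols occurred on more than 1 line, the line with the highest mean was used. Correlations used exact permutations for 6 mice and 100000 permutations within groups for 22. Replicate numbers follow accession order and only name a mouse. Library numbers run through the groups in order, so library order and group cannot be told apart. The scripts were tested on simulated data.

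Genes other than Meltf, Msln and Mafa were named by rule. These were the genes most and least like each member, the 5 protein-coding neighbours on each side, the genes of each list called on both backgrounds (at most 6), and the direct partners Tfrc, Slc40a1, Mslnl, Muc16 and Furin. Otoa, Adam17 and Strc, and single markers, were named after their values were seen. Tf is not analysed here, and 1 other gene that the rule names is not reported here. Alternatives were a pseudocount of 0.1, other filters, 3 rescalings (median-of-ratios, quantile, and a total without the 13 genes over 1% of any sample), other model settings, marker levels as covariates, and leaving out each mouse. A marker covariate was the mean log2(TPM + 1) of the markers in its list that passed the filter.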

Additional observations from a re-analysis of the deposited data

Results flagged for a closer look

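In 3 of 16 groups examined (4 genes in 4 groups), a sample lay farther from the others than Dixon's criterion allows, where chance gives about 1 in 20. The second Mixed WT mouse had 0.801 TPM of Meltf, below the 2.23 to 2.80 TPM of the other 4. The first C57 WT mouse had 275 TPM of Msln, above the 130 to 160 TPM of the other 4, and it also had 8.78 TPM of Mslnl, above the 4.38 to 4.63 TPM of the others.

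Among 46 named genes, 6 had a genotype difference that itself differed between backgrounds by limma's interaction term (13.0%), against 1233 of all 16756 genes (7.36%). Cemip, Galnt14, Hhatl and Itm2c were among the 46 for their correlation with Meltf or Msln, and Gpc1 and Dpm3 for their genotype calls. Hhatl rose by 1.06 in C57 and 2.04 in Mixed, an interaction of 0.98 (limma adjusted p = 0.0120). Gpc1 rose by 0.54 and 1.0, an interaction of 0.46 (limma adjusted p = 0.0288). Itm2c rose by 0.45 and 0.78, an interaction of 0.34 (limma adjusted p = 0.0374). Cemip rose by 1.67 and 1.08, an interaction of -0.59 (limma adjusted p = 0.0314). Galnt14 was at -0.73 and -1.39, an interaction of -0.66 (limma adjusted p = 0.0201). Dpm3 was at -0.28 and 0.30, an interaction of 0.57 (limma adjusted p = 0.0205).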

How the results depend on the processing

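No paired analysis was possible because the labels carry no replicate numbers shared between groups. The Het differences of Meltf and Msln kept their direction under every setting tried, but depth is unknown and could not be weighed. The cause was not tested for any change below, except that a stricter filter tests fewer genes.

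The Meltf difference in Mixed was 4.59 with a pseudocount of 0.1, and the alpha marker covariate gave 4.43 (Meltf, C57), 4.61 (Meltf, Mixed) and -3.996 (Msln, Mixed). Summed alpha markers did not overlap between genotypes, so fits with that covariate cannot separate it from genotype well. The background difference of the Meltf change, -0.04, turned to 0.20 (pseudocount 0.1), 0.065 (total without the 13 genes over 1% of any sample), 0.06 (arrayWeights), 0.069 (mesothelial covariate) and 0.19 (alpha covariate), and lay between -0.24 (without the second Mixed WT mouse) and 0.054 with each mouse left out. That of Mafa lay between -0.17 and 0.054. Between backgrounds, calls were lost for Meltf in WT in a fit on those samples alone (-0.68) and, with the mesothelial covariate, for Meltf (-0.51) and Msln (-0.97) in Het islets. Median-of-ratios scaling put the median over all genes at 0.0052 for C57, where it had been 0.08, and at -0.010 for Mixed, where it had been 0.10.

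Genes called between genotypes in C57 numbered 6362, and 3897 (acinar covariate) or 693 (alpha covariate). In Mixed they numbered 7395, and 368 (alpha covariate). Between backgrounds, WT calls numbered 1892, and 1251 (mean TPM of at least 5), 831 (contrast alone) or 1227 (alpha covariate). Het calls numbered 3428, and 2223 (mean of at least 5), 6572 (arrayWeights) or 1315 (mesothelial covariate). Of GPI-anchored proteins, 12 were called in C57 with no filter and 8 with the acinar covariate, in Mixed 13 with a mean of at least 5 and 12 with the mesothelial covariate, and 2 and 1 with the alpha covariate. Of anchor synthesis genes, 3 and 8 were called with the acinar covariate, 0 and 0 with the alpha covariate, and 4 to 9 in C57 with each mouse left out. Of iron genes, 2 and 0 were called with the alpha covariate. That covariate turned Slc48a1 in C57 (-0.01), Furin (-0.12 and -0.35), and Pigt (-0.12) and Dlg1 (-0.20) in Mixed.

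Most correlations within groups changed sign under some setting. For Meltf and Msln over 22 mice r was -0.0029 (pseudocount 0.1), -0.015 (median-of-ratios) and -0.086 (without the 2 farthest mice), and among Mixed Het mice 0.061 (median-of-ratios) and 0.043 (total without abundant genes). Without the 2 farthest mice r of Mafa and Meltf was -0.21 in C57 Het and -0.032 over 22 mice, and r of Mafa and Msln was 0.073 in Mixed Het and 0.025 over 22 mice. With each mouse left out, r of Mafa and Meltf ranged from -0.028 to 0.18 over 22 mice and from -0.44 to 0.50 in Mixed Het. In C57 Het it stayed positive, at 0.69 to 0.93. That of Mafa and Msln ranged from -0.32 to 0.10 over 22 mice, from -0.25 to 0.38 in C57 Het and from -0.66 to 0.78 in Mixed Het. That of Meltf and Msln ranged from -0.094 to 0.15 over 22 mice and from -0.41 to 0.59 in Mixed Het. In C57 Het it stayed negative, at -0.57 to -0.15.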
